A study of Rattus norvegicus with 4 samples.

Results

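Complement components and regulators were followed in the carotid body (CB), a chemoreceptor beside the carotid artery that senses oxygen in the blood through its glomus cells. The genes were C1r, C1s, Serping1, C4a, C4b, C2, C3, Cfi and C7, chosen by gene symbol, 9 of the 32883 genes in the deposited table. Each symbol had a single entry in the table, and 8 of the 9 passed the filter on low values, Cfi being the exception. Libraries came from neonates (day 5) and from rats that the study calls adults (day 21, about weaning age), all Sprague-Dawley and untreated. There were 2 libraries per age, each from CBs pooled from 6 pups or 3 older rats according to the labels, and the study's data included both sexes. The study's methods describe larger pools and a further replicate per age, which was not analysed here. As RNA of the whole organ was sequenced, fewer cells of a type and less RNA per cell cannot be told apart.

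Complement is a cascade of plasma and tissue proteins that marks surfaces for removal and can punch pores into membranes. In the classical pathway, C1q binds its target and activates the serine proteases C1r and C1s, which cut C4 and C2. The fragments form the convertase that cleaves C3, the point where all pathways meet. Serping1 encodes C1 inhibitor, which inactivates C1r and C1s, and Cfi encodes factor I, the protease that degrades C3b and C4b with the help of cofactors. C7 belongs to the terminal pathway, in which C5b to C9 assemble into the membrane attack complex. The liver makes most plasma complement, while fibroblasts, macrophages and endothelial cells make several components locally.

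The neonatal libraries held 39476110 and 38506468 estimated counts, the adult ones 37778975 and 36286191. A floor of detection of 3 counts was worth 0.0760 to 0.0827 CPM (counts scaled to a common library size), which covers counting error only. The neonatal libraries stood apart from each other in parathyroid genes. Pth, which encodes parathyroid hormone, had 62964 counts in neonate 1, 7483 in neonate 2 and 0 in both adult libraries. Values below are CPM after TMM scaling, and log2 fold changes are adult over neonate from edgeR's quasi-likelihood test, with p adjusted over all 13843 genes tested. A gene is said to have risen or fallen at an adjusted p under 0.05, and to have changed at least 2-fold when its fitted fold change also reached 2. An exact permutation test of a single value on 2 against 2 libraries cannot give a two-sided p below 0.333.

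Of the 8 genes tested, 6 rose with age, 5 of them at least 2-fold, and 0 fell. C2, the only gene with a negative log2 fold change, had an unadjusted p of 0.62 in edgeR's quasi-likelihood test. The risen genes were C7 (33.4-fold), C4b (25.3-fold), C1s (5.30-fold), Serping1 (3.01-fold), C4a (2.88-fold) and C1r (1.94-fold). Of these, C4b passed the filter on low values through the adult libraries alone, so it was tested, and enters these counts, because of its adult level. Without neonate 1, the library with the most Pth, 7 of the 8 passed the test and 6 rose at least 2-fold. Among all genes tested, 13.2% rose at least 2-fold, 7.68% fell at least 2-fold, 31.1% rose and 31.2% fell at any size. The median log2 fold change was 1.56 over the 8 genes and 0.0029 over all genes tested. For 7 of the 8 genes both adult libraries lay above both neonatal libraries, which held for 41.7% of all genes tested, while the reverse order held for 0 of the 8 and for 41.3% of all genes tested. Summed, the 9 genes had 195 and 237 CPM in the neonatal libraries and 789 and 926 CPM in the adult libraries.

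**Figure D1:**
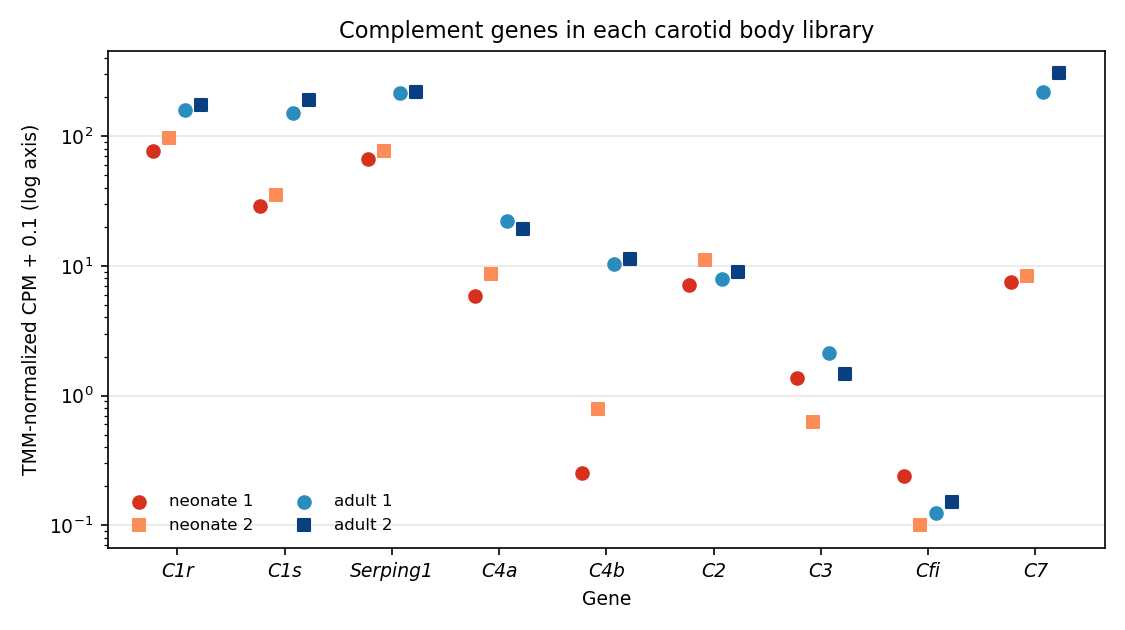
Normalized CPM plus 0.1 (log axis) of the 9 complement genes, with one point per library (circles for replicate 1, squares for replicate 2, red for neonates, blue for adults). The points of C7, C4b, C1s, Serping1, C4a and C1r are apart between ages, those of C2 interleave, and Cfi lies near the floor of detection.

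C1s (ENSRNOG00000011971), the protease of the C1 complex that cuts C4 and C2, had 28.9 and 35.2 CPM in neonates and 151 and 189 CPM in adults. Its rise was large against the spread (log2 fold change 2.41, standard error 0.13, adjusted p = 2.9e-06), with no overlap between ages. C1r (ENSRNOG00000011796), which activates C1s within the same complex, had 77.0 and 96.0 CPM in neonates and 160 and 175 CPM in adults. The rise of C1r was smaller, just short of 2-fold (log2 fold change 0.95, standard error 0.11, adjusted p = 9.4e-05), although its libraries did not overlap either. Serping1 (ENSRNOG00000007457), the inhibitor of both proteases, had 67.2 and 76.7 CPM in neonates and 216 and 217 CPM in adults. Its rise (log2 fold change 1.59, standard error 0.086, adjusted p = 2.9e-06) lay between those of C1r and C1s, and the adult libraries were nearly equal.

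Because the proteases and their inhibitor moved by different amounts, their ratios within a library shifted. Such ratios of counts do not depend on scaling or depth, and only their change between ages can be read, since transcript lengths differ. The ratio of C1r to C1s was 2.66 and 2.73 in neonates and 1.06 and 0.926 in adults, 2.72-fold lower in adults. For C1r over Serping1 the ratio was 1.15 and 1.25 in neonates and 0.740 and 0.805 in adults. C1s over Serping1 moved the opposite way, from 0.430 and 0.459 to 0.700 and 0.869. Relative to the inhibitor, C1r was therefore lower and C1s higher in both adult libraries. None of these 3 ratios overlapped between ages, and each had the smallest p that the exact two-sided permutation test can give, 0.333 (0.407 after Benjamini-Hochberg adjustment over the 11 ratios computed). C2 over Serping1 was 0.105 and 0.143 in neonates and 0.0361 and 0.0405 in adults, also without overlap (exact permutation p = 0.333).

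C4 is the substrate of C1s and carries a thioester that binds it to surfaces. Rats have a pair of C4 genes, C4a (ENSRNOG00000047657) and C4b (ENSRNOG00000030729), whose sequences are so alike that reads are divided between them by estimation, and both entries had fractional counts. A stretch upstream of both RefSeq starts (GRCr8, plus strand) is printed to show how alike the copies are there, with 190 of 200 aligned bases the same. The C4a stretch is chr20:4010157-4010356 and the C4b stretch chr20:4201774-4201973, on a newer build than the one used for the counts, and capitals mark the 10 bases at which the copies differ.
C4a: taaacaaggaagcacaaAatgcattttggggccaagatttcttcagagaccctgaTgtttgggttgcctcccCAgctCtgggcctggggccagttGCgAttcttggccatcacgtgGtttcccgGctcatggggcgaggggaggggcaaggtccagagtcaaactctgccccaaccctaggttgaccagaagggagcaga
C4b: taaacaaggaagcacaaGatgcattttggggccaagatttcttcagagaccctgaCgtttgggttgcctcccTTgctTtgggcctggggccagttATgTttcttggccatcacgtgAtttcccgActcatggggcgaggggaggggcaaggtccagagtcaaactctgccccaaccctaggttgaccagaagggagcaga
Of the differing bases, 2 lie in the 100 bases nearest the gene and none in the last 75. The E-box CACGTG, searched on both strands (the motif is its own reverse complement), is present in both copies and in 5.59% of the 33469 upstream stretches of 250 bases in the RefSeq table. A pair of motifs of interferon signalling was also searched on both strands, the interferon-stimulated response element (3.41% of all stretches) and the gamma-activated site TTCNNNGAA (7.67%). Neither was found in the 5 of the 9 genes that had such a stretch (C1r, C4a, C4b, C3 and Cfi), and no match says only that these letters are not in this window.

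C4b had 5.494 and 24.788 estimated counts in neonates and 414.832 and 446.283 in adults, or 0.154 and 0.688 CPM against 10.2 and 11.2 CPM. Its log2 fold change was 4.66 (standard error 0.48, adjusted p = 5.7e-05), and it ranked 30 of the 13843 genes tested by log2 fold change toward adults. The size rests on few neonatal reads, as the log2 fold change was 3.93 without neonate 1 and 6.20 without neonate 2, and C4b did not pass the filter on low values when either adult library was left out. C4a had 5.74 and 8.58 CPM in neonates and 22.2 and 19.1 CPM in adults, which did not overlap (log2 fold change 1.53, standard error 0.20, adjusted p = 0.00020). C4b accordingly took 2.62% and 7.42% of the C4 counts in neonates and 31.4% and 37.1% in adults. How reads were split between copies cannot be checked from gene-level counts, and the C4 sum was itself 0.025 to 0.28 away from a whole number in the 4 libraries, so some reads were also divided with other entries. Together the copies had 5.90 and 9.27 CPM in neonates and 32.4 and 30.3 CPM in adults, and fitted as 1 gene they rose 4.12-fold (log2 fold change 2.04, standard error 0.19, adjusted p = 3.2e-05).

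C2 (ENSRNOG00000051235), the protease that joins C4b in the classical convertase, had 7.07 and 10.99 CPM in neonates and 7.81 and 8.79 CPM in adults. Both adult libraries lay between the neonatal ones, and C2 did not pass the test (log2 fold change -0.12, standard error 0.24, adjusted p = 0.67), with the opposite sign (0.12) when libraries were scaled to size alone. C2 shares a locus with Cfb, which encodes the matching protease of the alternative pathway, and no annotated protein-coding gene lies between them in RefSeq. Cfb had 2 entries. In every library but adult 1, the fractional counts of C2 and these entries added up to within 0.001 of a whole number, so reads had been divided among the 3 entries. In adult 1 each of these counts was already whole, which says nothing about a division there. One Cfb entry (ENSRNOG00000000419) had 97.461 and 139.716 counts in neonates and 0 and 7.396 in adults, while the other (ENSRNOG00000051158) had 106.853 and 134.607 in neonates and 325 and 321.738 in adults. The first fell (log2 fold change -5.20, standard error 0.74, adjusted p = 0.00033) and the second rose (1.25, standard error 0.23, adjusted p = 0.0016). Their sum did not pass the test, at 5.74 and 7.62 CPM in neonates and 7.96 and 8.27 CPM in adults (log2 fold change 0.28, standard error 0.22, adjusted p = 0.28). With C2 added as well, the log2 fold change was 0.063 (standard error 0.18, adjusted p = 0.77), a setting chosen after the values were seen.

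**Figure D2:**
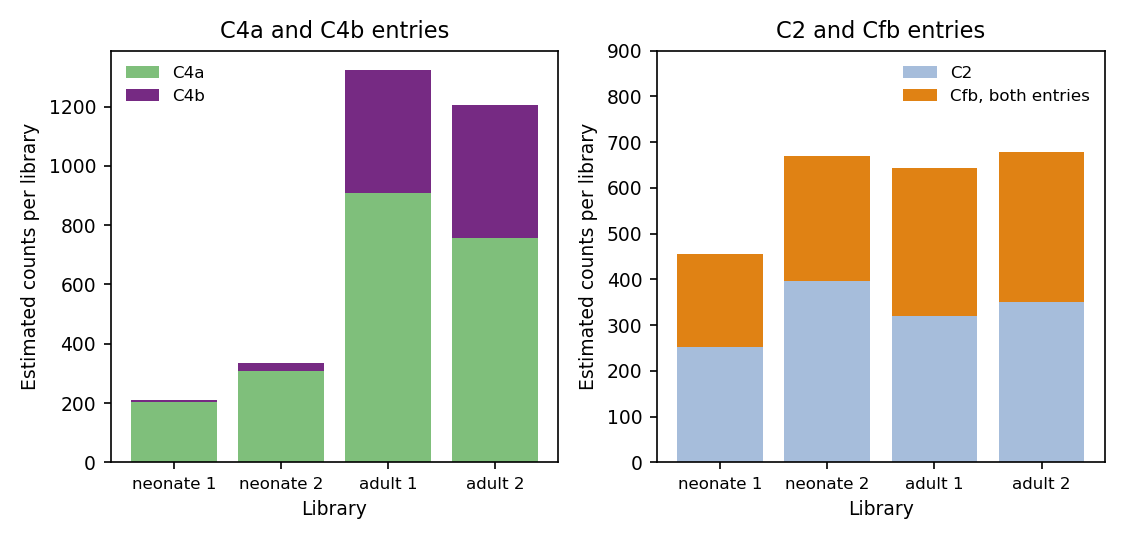
Estimated counts per library, stacked for C4a and C4b (left) and for C2 and the sum of both Cfb entries (right). The C4 total rises from 210 and 334 counts to 1322 and 1204 with a larger C4b part, whereas C2 with Cfb stays between 456 and 679 counts.

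C3 (ENSRNOG00000046834), the central component, was scarce at both ages. It had 45 and 19 counts in neonates and 83 and 54 in adults, or 1.26 and 0.528 CPM against 2.03 and 1.36 CPM. The adult libraries were above the neonatal ones by a narrow margin, and the difference did not pass the test (log2 fold change 0.92, standard error 0.48, adjusted p = 0.12). Without neonate 1, the log2 fold change was 1.67 (adjusted p = 0.011), and without neonate 2 it was 0.41 (adjusted p = 0.42), so the outcome for C3 depended on the neonatal library used. Cfi (ENSRNOG00000053400), encoding factor I, had 5 and 0 counts in neonates and 1 and 2 in adults. Only neonate 1 exceeded the floor of 3 counts, and a difference between ages was not detectable at this depth. C3 over C4 was 0.214 and 0.0569 in neonates and 0.0628 and 0.0448 in adults, which overlapped (exact permutation p = 0.667, two-sided).

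C7 (ENSRNOG00000061379), which joins the C5b-6 complex and lets it insert into membranes, had the largest fitted change of the 8 genes tested when all 4 libraries were used, although without neonate 2 its log2 fold change of 5.12 was below the 6.20 of C4b. It had 265 and 296 counts in neonates and 8937 and 12137 in adults, or 7.44 and 8.22 CPM against 219 and 305 CPM. Its rise (log2 fold change 5.06, standard error 0.17, adjusted p = 1.4e-06) ranked 25 of the 13843 genes tested toward adults, and it was 4.83 to 5.31 when any one library was left out. C6, its partner in the terminal pathway and near neighbour on the chromosome with 1 annotated protein-coding gene between them, had 3.54 and 3.39 CPM in neonates and 8.40 and 6.84 CPM in adults. C6 rose as well, by far less (log2 fold change 1.14, standard error 0.24, adjusted p = 0.0027). The later components showed no such level, as C8a had 0 counts in every library, C8b at most 1, and C9 had 21 and 15 counts in neonates and 7 and 3 in adults. C8g, with 1.85 and 1.61 CPM in neonates and 1.18 and 1.46 CPM in adults, did not pass the test (log2 fold change -0.40, adjusted p = 0.35).

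**Figure D3:**
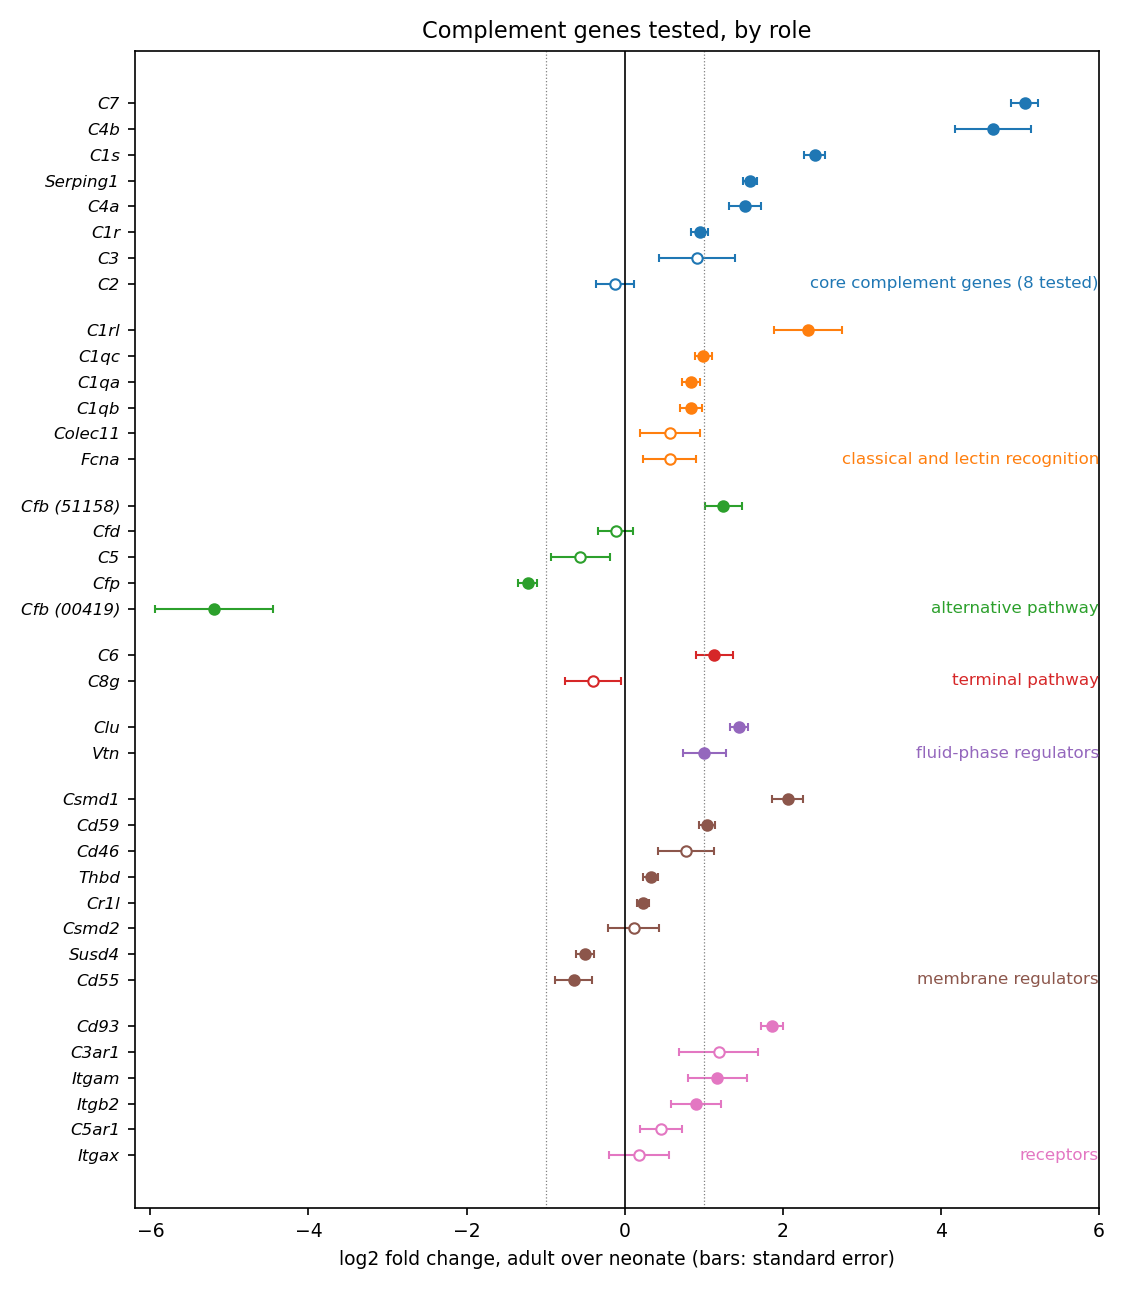
Log2 fold change (adult over neonate) with its standard error for the 8 core complement genes tested and for 29 of the 30 entries of other complement genes tested, grouped by role, with filled points for an adjusted p under 0.05 and dotted lines at 2-fold. C7 at 5.06 and C4b at 4.66 lie farthest to the right, and the first Cfb entry at -5.20 farthest to the left.

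A list of 50 other complement genes, 47 of which had an entry, showed how the rest of the system stood. Of these, 29 genes with 30 entries were tested, and 16 entries rose, 4 fell and 10 did not pass the test, where 31.1% of all genes tested rose and 31.2% fell. At least 2-fold, 10 entries rose and 2 fell, where 13.2% and 7.68% of all genes tested did. Over the entries tested the log2 fold changes had a median of 0.81. When libraries were scaled to size alone, 16 rose and 1 fell at least 2-fold. That scaling moved the median of all genes to 0.25 and the share of higher genes among those changed at least 2-fold from 63.2% to 78.4%.

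In the recognition arm, 4 of 6 genes tested rose, 1 of them at least 2-fold, beside 31.1% and 13.2% of all genes tested, and all 6 had a positive log2 fold change. The C1q chains, which macrophages make in many tissues, all rose, by less than 2-fold. C1qa had 13.8 and 13.4 CPM in neonates and 24.6 and 24.3 CPM in adults, and the log2 fold changes of C1qa and C1qb were both 0.84 (adjusted p = 0.00021 and 0.00087). C1qc had 15.8 and 16.9 CPM in neonates and 33.6 and 31.5 CPM in adults (log2 fold change 1.0, standard error 0.10, adjusted p = 5.9e-05). C1rl, a protease related to C1r and its direct neighbour on the chromosome, rose 4.99-fold, from 0.871 and 0.389 CPM to 3.09 and 3.22 CPM (adjusted p = 0.0014). It is the gene of this arm that rose at least 2-fold, and it passed the filter on low values through the adult libraries alone. Initiators of the lectin pathway ranged from 0 counts of Mbl1 in every library, through at most 13 counts of Masp2 and 26 to 41 of Masp1, to 86 and 139 counts of Fcna in neonates and 149 and 226 in adults. Fcna (log2 fold change 0.57, adjusted p = 0.16) and Colec11 (0.57, adjusted p = 0.21) were tested and did not pass.

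Among genes of the alternative pathway, Cfp fell. Cfp encodes properdin, which stabilizes the alternative convertase, and it had 34.5 and 29.5 CPM in neonates and 13.3 and 14.1 CPM in adults (log2 fold change -1.22, standard error 0.12, adjusted p = 4.0e-05). The other fall of at least 2-fold was the first Cfb entry described above, whose reads were divided with its copy and which did not pass as a fall of Cfb once the entries were summed. That entry passed the filter on low values through the neonatal libraries alone. Cfd, encoding factor D, did not pass the test (log2 fold change -0.11, adjusted p = 0.67), nor did C5 (log2 fold change -0.56, adjusted p = 0.22).

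All 3 fluid-phase regulators that could be tested rose at least 2-fold, beside 13.2% of all genes tested. Clu encodes clusterin, which keeps the terminal complex out of membranes, and rose 2.73-fold, from 80.0 and 70.3 CPM to 184 and 226 CPM (adjusted p = 1.4e-05). Vtn, encoding vitronectin with a like role, had 4.61 and 3.14 CPM in neonates and 6.73 and 8.87 CPM in adults (log2 fold change 1.01, adjusted p = 0.010). The other 7 genes of this list, among them C4bpa and Cpn2, had at most 17 counts in a library.

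Of 8 membrane regulators tested, 4 rose and 2 fell, beside 31.1% and 31.2% of all genes tested. Cd59, which blocks the last step of pore formation, had 73.2 and 87.0 CPM in neonates and 155 and 176 CPM in adults (log2 fold change 1.05, adjusted p = 4.6e-05). Csmd1, a large membrane protein with complement control repeats, rose 4.18-fold, from 3.54 and 3.55 CPM to 13.6 and 16.1 CPM (adjusted p = 3.5e-05). The falls were below 2-fold and concerned Cd55, which speeds the decay of convertases (log2 fold change -0.64, adjusted p = 0.038), and Susd4 (-0.50, adjusted p = 0.0038).

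Of the receptors, 3 of 6 tested rose, beside 31.1% of all genes tested, and all 6 had a positive log2 fold change. Cd93, an endothelial and myeloid surface protein once taken for a C1q receptor, had 56.2 and 43.7 CPM in neonates and 160 and 204 CPM in adults (log2 fold change 1.86, adjusted p = 1.4e-05). Itgam, a chain of complement receptor CR3, had 0.871 and 1.06 CPM in neonates and 1.81 and 2.54 CPM in adults (log2 fold change 1.17, adjusted p = 0.022). C3ar1, the receptor of C3a, did not pass the test (log2 fold change 1.19, adjusted p = 0.064). Before TMM scaling, Itgam and C3ar1 reached 1 CPM in the adult libraries alone, so both were tested because of their adult level. Cr2, a receptor of C3 fragments on B cells, had 151 and 23 counts in neonates and 0 in both adult libraries, and did not pass the filter on low values. Neonate 1, the library with the most Pth, also had the most Cr2, and the part of parathyroid tissue in this difference was not tested.

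**Figure D4:**
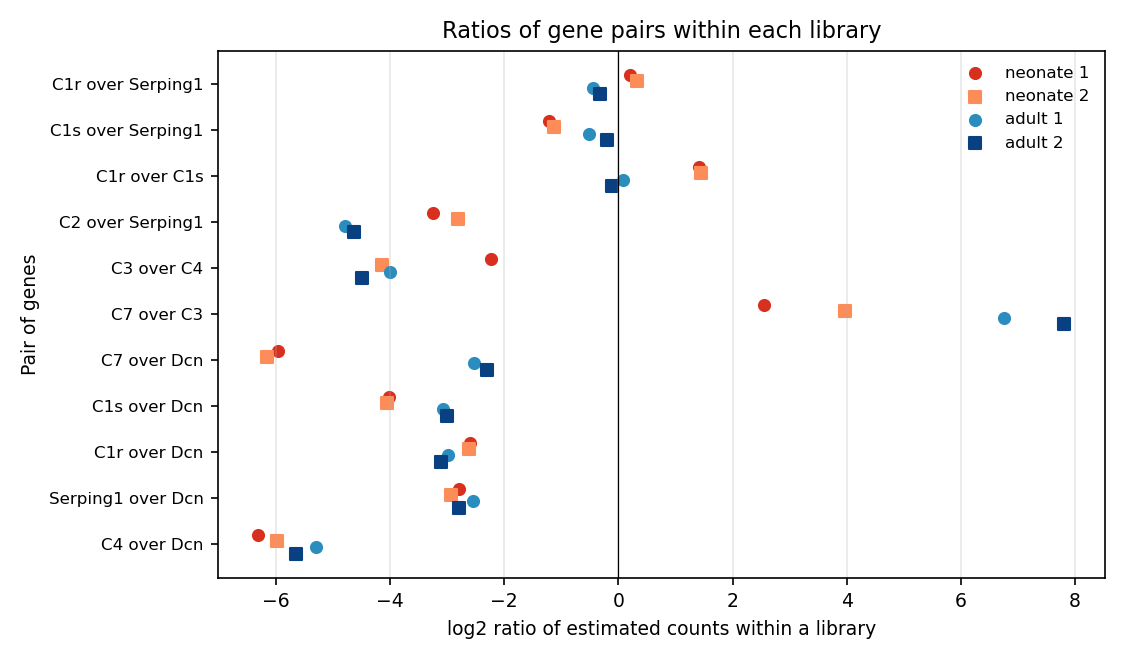
Log2 ratio of estimated counts within each library for pairs of complement genes and for complement genes over Dcn, with one point per library (red for neonates, blue for adults). C7 over C3, C7 over Dcn and C1s over Dcn lie to the right in adults, C1r over C1s and C2 over Serping1 to the left.

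Genes that mark the cell types of the organ moved with age too, and their values stand beside the complement genes because several of these cells can make complement. The counts for these lists are to be read against the 31.1% of all genes tested that rose and the 31.2% that fell. Among fibroblast markers 5 of 7 tested rose, beside 31.1% of all genes tested, and 2 did not pass the test (median log2 fold change 0.83). Dcn, a matrix gene of fibroblasts, rose from 465 and 585 CPM to 1266 and 1509 CPM (log2 fold change 1.40, adjusted p = 3.9e-05), while the list's most abundant gene, Col3a1, did not pass the test (log2 fold change 0.30, adjusted p = 0.071). Over the whole list, CPM summed to 13062 and 15605 in neonates and 16898 and 18757 in adults. C7 over Dcn was 0.0160 and 0.0141 in neonates and 0.173 and 0.202 in adults, 12.5-fold higher (exact permutation p = 0.333, two-sided). The corresponding change of the ratio to Dcn was 1.0 on the log2 scale for C1s, 0.68 for the C4 sum, 0.19 for Serping1 and -0.45 for C1r, and only Serping1 overlapped between ages. These ratios were chosen after the values were seen, and C7, C1s and C4 rose by more than Dcn in them. The log2 fold change of C1r, 0.95, was below those of Dcn and Pi16 (1.78). It was above those of the other fibroblast markers tested, from 0.13 for Col1a1 to 0.89 for Pdgfra. The direction of C1r against a fibroblast gene therefore depends on the gene chosen.

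Macrophage markers rose in 5 of 8 cases and fell in 1, beside 31.1% and 31.2% of all genes tested (median log2 fold change 0.87), and their CPM summed to 128 and 136 in neonates and 321 and 302 in adults. Lyz2, their most abundant gene, rose by a log2 fold change of 1.84 (adjusted p = 1.4e-06). Interferon response genes, which include inducers of complement genes in other settings, rose in 17 of 17 cases tested, 8 of them at least 2-fold, beside 31.1% and 13.2% of all genes tested (median log2 fold change 0.97). Their CPM summed to 235 and 232 in neonates and 408 and 408 in adults. Among the 8, Ifit1, Ifit3 and Oas1a passed the filter on low values through the adult libraries alone, so they were tested because of their adult level. The part of either list in the complement values was not tested.

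Hepatocyte markers had few counts, with 6 of the 7 that had an entry below the filter on low values. Their summed level was 1.80 and 2.75 CPM in neonates and 1.18 and 1.06 CPM in adults, Alb had 5 to 19 counts in a library, and Fga had 0 counts in every library. Apoa1, the most abundant of the list, had 48 and 61 counts in neonates and 14 and 23 in adults, and as the only one tested it fell (log2 fold change -1.72, adjusted p = 0.0086). Apoa1 passed the filter on low values through the neonatal libraries alone. Endothelial markers fell in 2 of 5 cases, beside 31.2% of all genes tested, and did not pass the test in 3, with a median of -0.18, and Cdh5, the most abundant, was among the latter (adjusted p = 0.069). Smooth muscle and pericyte markers rose in 3 of 6 cases and fell in 1, beside 31.1% and 31.2% of all genes tested, and Rgs5, the most abundant, rose by 1.80 on the log2 scale. Markers of glomus cells, the oxygen-sensing cells that define the organ, were abundant at both ages and rose in 3 of 9 cases and fell in 3, close to the 31.1% and 31.2% of all genes tested, with Ddc at 1604 and 1445 CPM in neonates and 1430 and 1258 CPM in adults.

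Sustentacular and Schwann markers rose in 3 of 6 cases and fell in 1, beside the same shares of all genes tested, and their CPM summed to 1001 in neonate 1, 1836 in neonate 2 and 1722 and 1840 in adults. Adipocyte markers rose in 4 of 5 cases and fell in 1, the most abundant gene Fabp4 (log2 fold change -0.51, adjusted p = 0.019). Cidec and Retn, among those that rose, passed the filter on low values through the adult libraries alone. All 5 erythroid genes tested fell, Hba-a1 being the most abundant. Of 6 neutrophil genes only 2 were tested, and both fell, S100a9 being the more abundant, while Csf3r, below the filter, had 11 and 9 counts in neonates and 13 and 38 in adults. The 2 tested passed the filter through the neonatal libraries alone. Of 7 lymphocyte genes only Cd79a was tested, and it fell, while Cd3e, below the filter, had 4 and 0 counts in neonates and 9 and 5 in adults. Cd79a too passed the filter through the neonatal libraries alone. Parathyroid markers fell in 4 of 4 cases, Chga, which glomus cells share, being the most abundant. All of them but Chga passed the filter through the neonatal libraries alone.

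**Figure D5:**
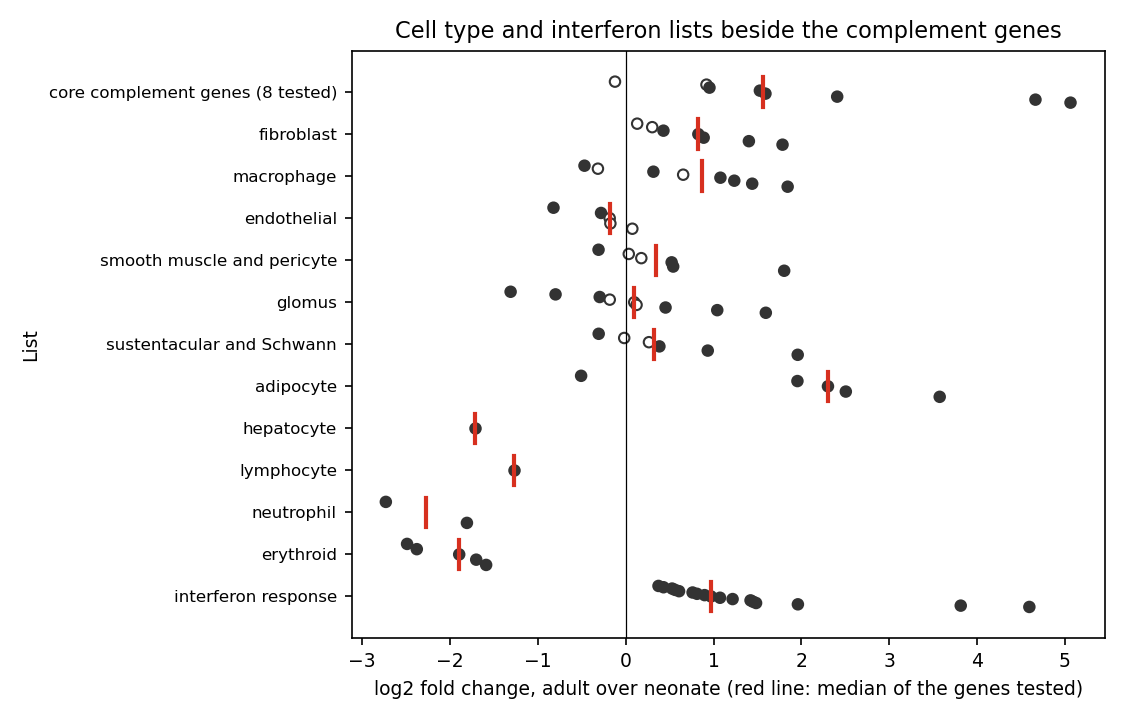
Log2 fold change (adult over neonate) of each gene tested, in a row for the core complement genes and a row for each list of cell type or interferon response genes, with the median as a red line. The parathyroid list is left out because Pth, Gcm2 and Rhcg lie far to the left, although Chga, at -0.80, does not. The complement row has a median of 1.56, the fibroblast, macrophage and interferon rows medians of 0.83, 0.87 and 0.97.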

How the data were processed

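Total RNA of pooled carotid bodies was sequenced as bulk RNA-seq. According to the labels and the study's methods, reads were mapped with STAR 2.6.1d to the rat genome Rnor_6.0, and the processing notes name Salmon 1.5.2. The table deposited by the authors holds estimated counts per gene, some of them fractional (5.02% to 6.19% of genes per library), which were rounded to whole numbers for the tests. Releases 102 and 84 of the Ensembl annotation are both named. Of the genes, 636 with a non-coding annotation were left out and 13665 without a biotype stayed in. The 13843 that reached 1 CPM in 2 or more libraries were tested with edgeR 4.0.16 (TMM factors, quasi-likelihood test, Benjamini-Hochberg adjustment, R 4.3.3). Libraries labelled as replicates are pools of animals, and p-values rest on the spread between these pools. The spread of each gene was moderated with that of the other genes tested, so small p-values do not rest on that gene's own pools alone. Replicates differed by more than sampling noise (chi-square per degree of freedom 32.6 in neonates and 15.4 in adults). Members and lists were chosen with earlier results of these data known. The text names every member, in each list of other complement genes those changed at least 2-fold or, where fewer than 2 were, those with the most counts, in each marker list the most abundant gene and any at the floor, and the 5 genes nearest in profile. Other genes named were picked after their values were seen. Alternatives were DESeq2 1.42.0, limma 3.58.1, other scalings and filters, a replicate block, summed copies and leaving out each library. Scripts were tested on simulated data. Gene order and upstream sequences come from RefSeq (GRCr8), which had such sequences for 5 of the 9 genes. Some genes that this rule names are not reported here, although counts and medians of their lists include them.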

Additional observations from a re-analysis of the deposited data

How the results depend on the processing

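Limits come first from the number of libraries, 2 per age, and from few counts in C3, C4b in neonates and Cfi. Of 122 alternative values of the log2 fold changes of single complement genes, 119 kept their direction and their side of the threshold. C3 passed the test without neonate 1 (1.67), and C2 changed sign to 0.12 with scaling to library size alone and to 0.21 without neonate 2, its values with 1 library left out ranging from -0.42 to 0.21. C4b could not be tested without either adult library, where it fell below the filter on low values. Of the 9 genes, 5 to 7 passed the test and 4 to 6 rose at least 2-fold when 1 library was left out, and C1r reached 2-fold with scaling to library size alone (log2 fold change 1.20), without neonate 2 (1.10) and without adult 1 (1.05). Among other complement genes, 10 rose at least 2-fold, 16 with scaling to library size alone and 7 to 12 with 1 library left out. The number that fell at least 2-fold was 2, and it was 3 with no filter on low counts and 1 with scaling to library size alone, with a mean of at least 5 CPM, with entries of a symbol summed, with C2 and Cfb summed (chosen after the values were seen) and, as the lower end of 1 to 2, with a library left out, namely either neonatal library. The cause was not tested. Across all genes, a mean of at least 5 CPM gave 1169 genes higher and 654 lower in adults in place of 1822 and 1063.

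With the replicate number as a block, the log2 fold changes of the 8 genes tested kept their direction and side of the threshold, 6 passing the test and 5 rising at least 2-fold. Among other complement genes, 21 entries passed in place of 20, and 11 in place of 10 rose at least 2-fold. In the marker lists 63 passed in place of 61. Across all genes, 1866 were higher and 1071 lower in adults. Same-numbered libraries did not deviate together across genes (correlation of deviations from the age means -0.015). With a single pair of libraries per age, this correlation cannot exclude that libraries were paired.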

Other observations

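Genes beside the complement genes on the chromosome, chosen after the values were seen, did not all move alike. In RefSeq order, C1rl, C1r and C1s are direct neighbours and all rose, while of the next genes on the side of C1s, Lpcat3 did not pass the test (log2 fold change 0.10, adjusted p = 0.48) and Emg1 (-0.42, adjusted p = 0.010) and Phb2 (-0.43, adjusted p = 0.0010) fell. Near C7, Plcxd3 (1.07, adjusted p = 0.011) and Card6 (0.62, adjusted p = 0.00029) rose with C6, and Rpl37, which encodes a ribosomal protein, fell (-1.16, adjusted p = 5.1e-05). Notch4, the tested gene closest to C4b, fell (-0.66, adjusted p = 0.0071).

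The profiles nearest to the mean of the 8 complement genes tested, by Euclidean distance between centred log2 CPM over the 4 libraries, were those of Bace1 (0.096), Avl9 (0.11), Ppp2r2c (0.11), Usp31 (0.12) and Lrrc58 (0.12) among 11303 genes with a mean of at least 5 CPM. For C3 they included Plau (0.23), Zdhhc23 (0.34), Ddx3 (0.38) and AC241873.1 (0.39) among 11310. With 4 libraries many genes lie close to any such profile.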
